A study of Mus musculus with 24 samples.

Results

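Long-term haematopoietic stem cells (LT-HSCs) of Daxx-WT and Daxx-KO mice were compared by the places at which their chromatin was open. The 4 LT-HSC libraries whose titles carry no time label were taken, 2 from Daxx-WT and 2 from Daxx-KO mice, of 24 libraries in the series. The assay was ATAC-seq, which uses the transposase Tn5 to cut and tag DNA that is not packed into nucleosomes. The mice were C57BL/6, with the genotype Daxx +/+ Cre +/- for Daxx-WT and Daxx F/F Cre +/- for Daxx-KO, where F is an allele with loxP sites around exons 2 to 7 of Daxx. Per the study's methods both groups carried RosaCreERT2, a Cre recombinase made in all tissues and switched on by tamoxifen, and marrow was taken 3 weeks after tamoxifen. Daxx was therefore deleted in the whole animal and not in stem cells alone. After enrichment on c-Kit, cells that were Lin-, Sca-1+, c-Kit+, CD150+, CD48- and CD45.2+ were sorted as LT-HSCs. The authors deposited 1 peak list for each genotype, of 65455 peaks for Daxx-WT LT-HSCs and of 70455 for those without Daxx. These lists hold positions alone, without a height or a score. There is thus no spread between libraries, no test of a difference could be made, the read depth is unknown, and every value from these 2 lists is a description of 1 list per genotype.

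Daxx is a chaperone that deposits the histone variant H3.3 together with Atrx, and H3.3 placed by this route is known from heterochromatin, telomeres and silenced repeats. Hira, with Ubn1 and Cabin1, is the core of the other H3.3 deposition complex. LT-HSCs are the rare marrow cells that renew themselves and give rise to all blood lineages, and their enhancers are bound by factors such as Runx1, Gata2, Fli1, Erg and Meis1. A peak is a stretch of DNA in which the number of Tn5 cuts exceeds its surroundings, and in these cells peaks lie mostly at promoters and enhancers.

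A peak was called shared if it overlapped a peak of the other genotype by at least 1 bp. In the Daxx-KO list 9816 of 70455 peaks (13.9%) had no Daxx-WT peak and are named Daxx-KO only. In the Daxx-WT list 4438 of 65455 peaks (6.78%) had no Daxx-KO peak and are named Daxx-WT only. The remaining 60639 Daxx-KO and 61017 Daxx-WT peaks were shared. The Daxx-KO list was the longer, and since most peaks were shared about one to one, the excess of Daxx-KO only peaks is largely this difference in length. The shares of 13.9% and 6.78% are the background against which each group of genes is read.

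The sequences at the centre of 9 only-peaks are shown because their genes recur in the results, 5 of them from peaks that were Daxx-KO only and 4 from peaks that were Daxx-WT only. Each is 200 bp around the centre of a peak outside promoters and exons, read 5′ to 3′ on the plus strand of GRCm38 (mm10). Capitals mark a match, in either orientation, to the letters GAGGAAGT of the myeloid and lymphoid factor Pu.1 (Slamf1, Cd82, Runx2 and Mef2c), TGANTCA of AP-1 (Runx1), AGATAAG of GATA factors (Clint1) or TGTGGTT of RUNX factors (the Igh locus and Mllt3). The Runx1 sequence also holds TGTGGTT near its left end, left in lower case. The Mecom sequence held none of the motifs searched and is shown because LT-HSCs at 3 days post induction (3 d.p.i.) also had less signal there without Daxx.
Slamf1, Daxx-KO only, chr1:171785910-171786109: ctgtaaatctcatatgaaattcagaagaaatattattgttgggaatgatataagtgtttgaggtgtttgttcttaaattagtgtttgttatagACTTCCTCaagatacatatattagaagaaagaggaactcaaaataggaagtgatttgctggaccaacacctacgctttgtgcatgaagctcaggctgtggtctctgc
Cd82, Daxx-KO only, chr2:93459133-93459332: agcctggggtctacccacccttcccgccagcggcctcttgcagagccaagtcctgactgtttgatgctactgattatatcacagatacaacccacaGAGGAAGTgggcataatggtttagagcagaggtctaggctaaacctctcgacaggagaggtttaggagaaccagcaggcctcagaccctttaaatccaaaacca
Runx1, Daxx-KO only, chr16:92608271-92608470: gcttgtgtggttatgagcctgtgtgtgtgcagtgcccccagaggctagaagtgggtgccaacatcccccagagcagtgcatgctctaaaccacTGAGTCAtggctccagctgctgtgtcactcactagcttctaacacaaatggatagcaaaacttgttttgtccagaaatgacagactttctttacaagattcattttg
Clint1, Daxx-KO only, chr11:45805474-45805673: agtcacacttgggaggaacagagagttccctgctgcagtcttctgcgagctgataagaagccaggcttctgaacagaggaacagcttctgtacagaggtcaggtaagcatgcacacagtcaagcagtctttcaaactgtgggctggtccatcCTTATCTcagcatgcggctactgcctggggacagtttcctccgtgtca
Igh (nearest coding gene Zfp386), Daxx-KO only, chr12:115544632-115544831: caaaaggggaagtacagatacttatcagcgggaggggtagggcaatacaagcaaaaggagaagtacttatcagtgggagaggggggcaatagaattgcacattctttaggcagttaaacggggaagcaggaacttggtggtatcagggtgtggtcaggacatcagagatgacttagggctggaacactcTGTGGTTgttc
Mecom, Daxx-WT only, chr3:30056231-30056430: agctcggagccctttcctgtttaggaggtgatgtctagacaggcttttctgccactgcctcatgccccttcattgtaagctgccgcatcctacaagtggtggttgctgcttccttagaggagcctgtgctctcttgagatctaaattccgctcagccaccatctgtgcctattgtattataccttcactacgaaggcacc
Mllt3, Daxx-WT only, chr4:87692659-87692858: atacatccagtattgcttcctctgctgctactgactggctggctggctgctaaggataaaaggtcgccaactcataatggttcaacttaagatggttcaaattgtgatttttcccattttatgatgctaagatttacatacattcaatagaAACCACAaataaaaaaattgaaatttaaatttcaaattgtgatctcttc
Runx2, Daxx-WT only, chr17:44738363-44738562: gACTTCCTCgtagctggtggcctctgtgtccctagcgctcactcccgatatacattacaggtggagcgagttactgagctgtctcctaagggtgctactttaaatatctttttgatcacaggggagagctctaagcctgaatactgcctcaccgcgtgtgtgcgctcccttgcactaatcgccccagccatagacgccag
Mef2c, Daxx-WT only, chr13:83079370-83079569: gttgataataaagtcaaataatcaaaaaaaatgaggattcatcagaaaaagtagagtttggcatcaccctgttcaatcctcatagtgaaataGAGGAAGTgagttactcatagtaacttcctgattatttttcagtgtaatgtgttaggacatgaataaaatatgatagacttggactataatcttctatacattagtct

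The Slamf1 peak lay in an intron, 18.6 kb from the start site of the gene for the sorting antigen CD150, at chr1:171785678-171786341. The Cd82 peak lay in an intron 2.47 kb from the start site of Cd82, a tetraspanin of the stem cell surface. The Runx1 peak was in an intron of the stem cell factor Runx1, 86.8 kb from a coding start site. The Clint1 peak was intergenic, 46.2 kb from the nearest coding start site. The Igh peak lay among the V segments of the immunoglobulin heavy chain locus, 503 kb from the nearest protein-coding start site. The Mecom peak was in an intron, 42.7 kb from a start site of this self-renewal factor. The Mllt3 peak was intergenic, 113 kb from the start site of Mllt3, a chromatin reader that supports stem cell maintenance. The Runx2 peak was in an intron 1.59 kb from a start site. The Mef2c peak lay outside Mef2c, in an intron of another annotated gene, 424 kb from the nearest coding start site.

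The targeted gene was checked first. Daxx lies at chr17:33909414-33915590 on the plus strand. Its promoter peak ran from 33908386 to 33910328 in Daxx-WT LT-HSCs and from 33908338 to 33910037 in Daxx-KO LT-HSCs. It thus ended 103 bp before exon 2 with Daxx and 394 bp before exon 2 without it, on the side of the gene that the deletion removes. No other peak of either list lay in exons 2 to 7, so the lists offer no further check of the deletion. Of 12 LT-HSC markers, 11 had a promoter peak in both lists, among them Procr, Slamf1, Kit, Hlf, Mecom, Tek, Fgd5 and Hoxb5. Ly6a, which encodes the sorting antigen Sca-1, had a promoter peak in neither. Of 18 genes of other cell types, 10 had a promoter peak in both lists, among them Cd48, Flt3, Mpo and Klf1. The other 8 had a promoter peak in neither list: Cd79a, Ms4a1, Cd3e, Ly6g, S100a8, Elane, Csf1r and Hbb-bt. No marker had a promoter peak in 1 genotype alone.

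Only-peaks were narrower than shared peaks and lay mostly away from promoters. Their median width was 603 bp (Daxx-KO only) and 515 bp (Daxx-WT only), against 979 bp and 919 bp for the shared peaks of the same lists. Peaks within 1000 bp of an annotated transcription start site made up 16.0% of Daxx-KO only peaks (1569 peaks, 95% Wilson interval 15.3 to 16.7%), 12.5% of Daxx-WT only peaks (553 peaks, 11.5 to 13.5%) and 33.5% of shared peaks of the Daxx-KO list. These intervals cover counting error only. The order of the 2 kinds of only-peaks turned when sharing asked for an overlap of 50% of both peaks, with 17.8% for Daxx-KO only and 18.4% for Daxx-WT only. Introns held 44.8% of Daxx-KO only, 47.3% of Daxx-WT only and 34.3% of shared peaks. The median distance to the nearest protein-coding start site was 20.4 kb, 23.6 kb and 12.4 kb. Much of the difference from shared peaks went with width. Among peaks of 400 bp to below 800 bp, 13.9% of Daxx-KO only, 11.9% of Daxx-WT only and 14.9% of shared peaks were at a start site. Among peaks of 1200 bp to below 1600 bp, the shares were 27.4%, 21.6% and 53.5%.

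**Figure D1:**
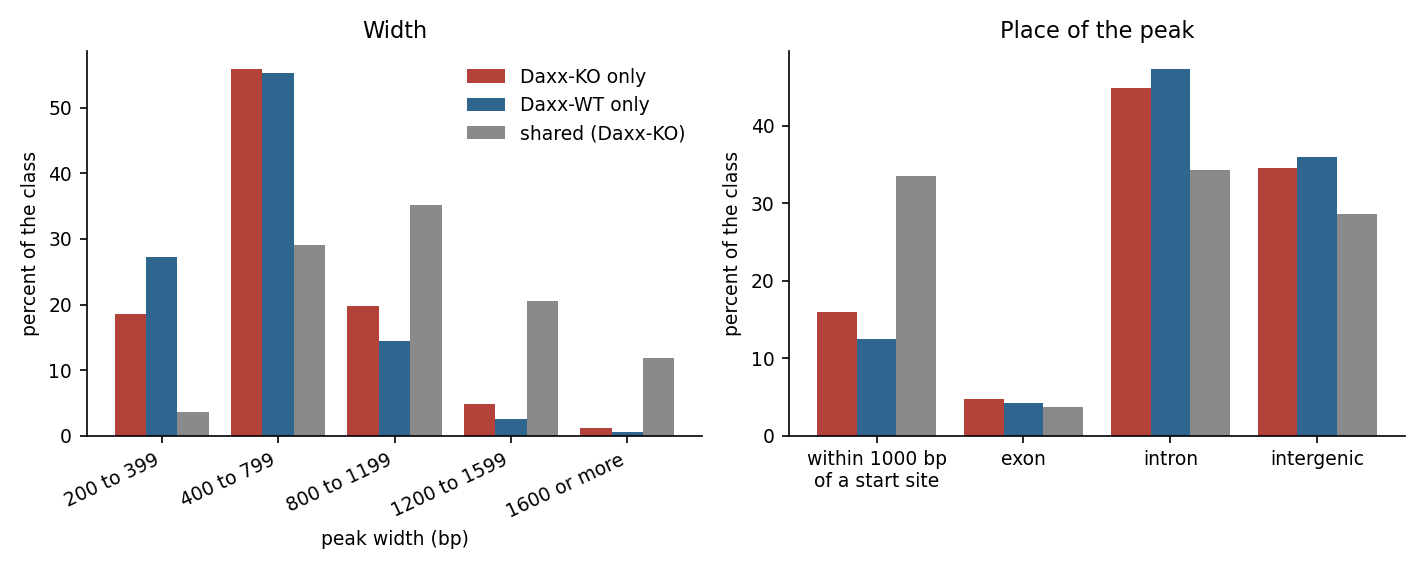
Left, percent of Daxx-KO only, Daxx-WT only and shared peaks (Daxx-KO list) in each class of width in bp; right, percent of the same peaks within 1000 bp of a start site, in exons, in introns and between genes. Of Daxx-KO only peaks 55.9%, and of Daxx-WT only peaks 55.3%, were 400 bp to below 800 bp wide, and shared peaks were the ones most often at a start site.

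The rule separates peaks by presence. With an overlap of at least 50% of both peaks asked for in place of 1 bp, 11294 peaks were Daxx-KO only and 6294 Daxx-WT only. A Daxx-WT peak lay within 200 bp of 242 Daxx-KO only peaks, and a Daxx-KO peak within 200 bp of 119 Daxx-WT only peaks, while 22 shared pairs overlapped by less than 50 bp. The median distance to the nearest peak of the other list was 5.82 kb for Daxx-KO only and 6.32 kb for Daxx-WT only peaks, with 1219 and 536 peaks within 1 kb of one and 626 and 395 more than 50 kb from one. Where 1 peak of each list matched 1 of the other (59359 pairs), the Daxx-KO peak was the wider in 64.0%. The median log2 ratio of Daxx-KO to Daxx-WT width was 0.04, with 5th and 95th percentiles of -0.33 and 0.59. Peaks at least 2 times as wide in Daxx-KO numbered 645, and at least 2 times as wide in Daxx-WT 134. The pair with the largest ratio lay 4187 bp from a start site of Pnrc1, with 385 bp in Daxx-WT and 2248 bp in Daxx-KO. A pair in an intron of the cardiac and endodermal factor Gata4 had 468 bp in Daxx-WT and 2419 bp in Daxx-KO. In the other direction, an intronic peak of Bcl11a, a factor of lymphoid and fetal globin control, had 1739 bp in Daxx-WT and 465 bp in Daxx-KO. The promoter peak of Cd63, a tetraspanin, had 1184 bp in Daxx-WT and 329 bp in Daxx-KO.

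CpG-rich peaks had a GC content of at least 50% and an observed to expected CpG ratio of at least 0.6. They made up 23.5% of Daxx-KO only, 14.1% of Daxx-WT only and 45.7% of shared peaks at start sites. The peaks at start sites differed in width, with medians of 668 bp, 549 bp and 1300 bp. Over peaks of any place of 400 bp to below 800 bp, 3.79%, 2.24% and 3.43% were CpG-rich. Of those of 1200 bp to below 1600 bp, 13.7%, 9.48% and 29.8% were. Soft-masked bases, which mark repeats, took a mean of 18.1% of Daxx-KO only, 17.6% of Daxx-WT only and 14.9% of shared peaks. Much of this difference also went with width. Among peaks of 400 bp to below 800 bp the means were 17.2%, 17.2% and 16.9%. Among peaks of 1200 bp to below 1600 bp they were 16.1%, 18.1% and 12.8%. In the central 200 bp, GAGGAAGT was found in 5.83% of Daxx-KO only peaks (572, 95% Wilson interval 5.38 to 6.31%) and in 7.28% of Daxx-WT only peaks (323, 6.55 to 8.08%), against 4.67% of all Daxx-KO and 4.8% of all Daxx-WT peaks. The AP-1 letters TGANTCA were in 8.03% and 9.73%, against 6.84% and 6.86% of all peaks. The letters GAAANNGAAA of interferon regulatory factors were in 3.68% of Daxx-KO only against 5.14% of Daxx-WT only peaks, against 3.35% and 3.48% of all peaks. Among distal peaks of 400 bp to below 800 bp, GAAANNGAAA was in 4.05% of Daxx-KO only peaks (95% Wilson interval 3.52 to 4.65%) against 5.65% of Daxx-WT only peaks (4.75 to 6.7%). In the same peaks the intervals overlapped for GAGGAAGT, with 6.87% against 7.78%, and for TGANTCA, with 8.88% against 10.2%. Shared peaks of that place and width had 6.09% (GAGGAAGT), 8.45% (TGANTCA) and 3.91% (GAAANNGAAA) in the Daxx-KO list, and 6.04%, 8.44% and 3.84% in the Daxx-WT list. For each of these letters the intervals of Daxx-KO only and shared peaks overlapped. Those of Daxx-WT only peaks lay above those of shared peaks. Over only-peaks of any place and width, the GATA letters AGATAAG were in 4.02% (Daxx-KO only) and 3.7% (Daxx-WT only). The RUNX letters TGTGGTT were in 8.82% and 8.25%, and for both strings the intervals overlapped. All Daxx-KO peaks had 3.22% and 7.32%, and all Daxx-WT peaks 3.18% and 7.33%. Among distal peaks of 400 bp to below 800 bp, AGATAAG was in 4.3% of Daxx-KO only peaks (3.76 to 4.92%). This interval lay above that of shared peaks of the Daxx-KO list (3.26%, 2.98 to 3.55%). It overlapped that of the Daxx-WT list (3.64%, 3.37 to 3.93%). Intervals of Daxx-WT only peaks (3.89%), and those of TGTGGTT in both kinds (9.62% and 8.56%), overlapped the shared ones. The CTCF motif, the mark of insulator sites, was in 7.86% of Daxx-KO only peaks against 9.04% of Daxx-WT only peaks. In distal peaks of 400 bp to below 800 bp it was in 6.87% and 6.06%, against 14.4 to 15.6% (the interval) of shared peaks of that width. The Hox and Meis letters TGATTTAT were in 0.815% and 0.811% of only-peaks and in 0.751% of all Daxx-KO peaks. Both strands were searched and none of these letter strings contains another. A match is a string of letters and not a bound site.

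Only-peaks were spread over all chromosomes. On the 19 autosomes the share of Daxx-KO peaks that were Daxx-KO only ranged from 12.6% to 14.9%, and that of Daxx-WT only peaks from 5.15% to 8.31%. On chromosome X they were 17.5% of 1497 Daxx-KO peaks and 10.2% of 1390 Daxx-WT peaks. On chromosome Y, with 41 and 30 peaks, they were 36.6% and 13.3%. The study used mice of both sexes, and the sex of the mice behind each list was not taken into account here. Whether it bears on the shares of X and Y was not tested. Neighbouring only-peaks at most 50 kb apart were joined into clusters. Clusters of at least 2 held 5098 Daxx-KO only peaks (51.9%) and 1110 Daxx-WT only peaks (25%), and clusters of at least 5 numbered 95 and 2. Longer lists form more clusters, so the gap was also scaled to the number of peaks. With a gap of 22.6 kb for the Daxx-KO only peaks, 30.8% of them were in clusters of at least 2, with 20 clusters of at least 5.

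The longest Daxx-KO only cluster had 10 peaks over 158 kb of chromosome 1, at the genes Lman2l, Cnnm3, Ankrd23, Ankrd39 and Sema4c, where 19 peaks of the Daxx-KO list lay in all. The next held 9 peaks over 178 kb of chromosome 9 at Itga9, an integrin subunit, Ctdspl and Vill. A cluster of 8 peaks over 124 kb of chromosome 17 covered Grm4, Hmga1, Nudt3 and Rps10, and 6 of its peaks were at start sites. Hmga1 encodes an architectural chromatin protein. Clusters of 7 lay in Cd82 on chromosome 2 and at Pdgfb, Rpl3 and Syngr1 on chromosome 15. The longest Daxx-WT only cluster had 6 peaks over 71.5 kb of chromosome X at Msn, which encodes the membrane linker moesin. The nearest-gene count there was 10 peaks in Daxx-WT and 4 in Daxx-KO, with no Daxx-KO only peak. The next held 5 peaks at Echdc3 and Usp6nl on chromosome 2. Clusters of 4 lay in Nck2, at Slc39a8 and Bank1, and at Col23a1 and Phykpl.

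The Hox clusters held 2 of the 8 longest Daxx-KO only clusters. Hox genes encode the homeobox factors that set position along the body axis, and those of the Hoxa and Hoxb groups also act in stem cells. They were examined as a family after these positions had been seen. At chr15:102921103-103036852, the span of the Hoxc genes, 12 Daxx-KO peaks lay and 6 of them were Daxx-KO only, against 6 Daxx-WT peaks, of which none was Daxx-WT only. The nearest genes of the cluster, which ran past the left end of this span, were Hoxc13, Hoxc12, Hoxc11, Hoxc9 and Hoxc5. Hoxc13, Hoxc12 and Hoxc5 were the nearest genes of 2 Daxx-KO peaks each and of no Daxx-WT peak. None of the 6 Daxx-KO only peaks of the span was found in another list from cells without Daxx. In Daxx-WT common myeloid progenitors 1 of the 6 had a peak, and in Daxx-WT granulocyte and monocyte progenitors 1. At 3 d.p.i. the span held 5 peaks in each genotype. In the Hoxa cluster, 7 of 22 Daxx-KO peaks (31.8%) were Daxx-KO only and none of 15 Daxx-WT peaks was Daxx-WT only. They included a peak of 1456 bp at Hoxa13 and peaks at Hoxa5, Hoxa9, Hoxa10 and Hoxa11. None of these 7 peaks was found in any of the other 9 lists of the series, among them a list from cells that lacked both Daxx and Pu.1. In the Hoxb cluster 7 of 26 Daxx-KO and 2 of 21 Daxx-WT peaks were only-peaks, the latter at Hoxb6 and Hoxb7. In the Hoxd cluster 2 of 12 Daxx-KO and 1 of 11 Daxx-WT peaks were only-peaks. The Daxx-WT only peak there, of 1508 bp, lay at the start site of Hoxd9, and 3 d.p.i. LT-HSCs also had a peak at that place with Daxx and none without it.

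Antigen receptor loci stood behind 2 genes that were nearest to the most Daxx-KO only peaks. Zfp386 had 15 Daxx-KO only peaks of 37, and Dad1 had 11 of 53. Zfp386 is the first protein-coding gene beyond the V segments of the immunoglobulin heavy chain locus, and Dad1 is the gene next to the T cell receptor alpha constant segment. Both genes are thus placeholders for peaks inside these loci, which rearrange in lymphocytes. Over the whole heavy chain locus (chr12:113254830-116010093, examined after these positions had been seen), 20 of 49 Daxx-KO peaks (40.8%) were Daxx-KO only and 5 of 34 Daxx-WT peaks (14.7%) were Daxx-WT only. Of the 20, 14 were within 1000 bp of an annotated start site. Many of them were open in progenitors of both genotypes: 12 of 20 had a peak in Daxx-WT CMPs, the common myeloid progenitors, and 12 in Daxx-WT GMPs, the granulocyte and monocyte progenitors. Without Daxx, 12 had a peak in CMPs and 10 in GMPs, and in KLS cells, which hold stem and multipotent cells, 12 had one without Daxx and 8 with it. In LT-HSCs at 3 d.p.i., 4 of the 20 had a peak without Daxx and 0 of 20 had one with Daxx. The 3 d.p.i. lists had 23 peaks without Daxx and 11 peaks with Daxx over this locus. Over the T cell receptor alpha and delta loci, 19 of 79 Daxx-KO peaks (24.1%) were Daxx-KO only and 6 of 66 Daxx-WT peaks (9.09%) were Daxx-WT only, and 2 of the 19 had a peak in Daxx-WT CMPs. The kappa light chain locus had 4 of 10 and 0 of 6, and the T cell receptor beta locus 4 of 26 and 3 of 25. The V segments are a family of similar sequences, and how reads that match several of them were placed is not given in the sources used here. The B and T cell markers Cd79a, Ms4a1 and Cd3e had a promoter peak in neither LT-HSC list.

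**Figure D2:**
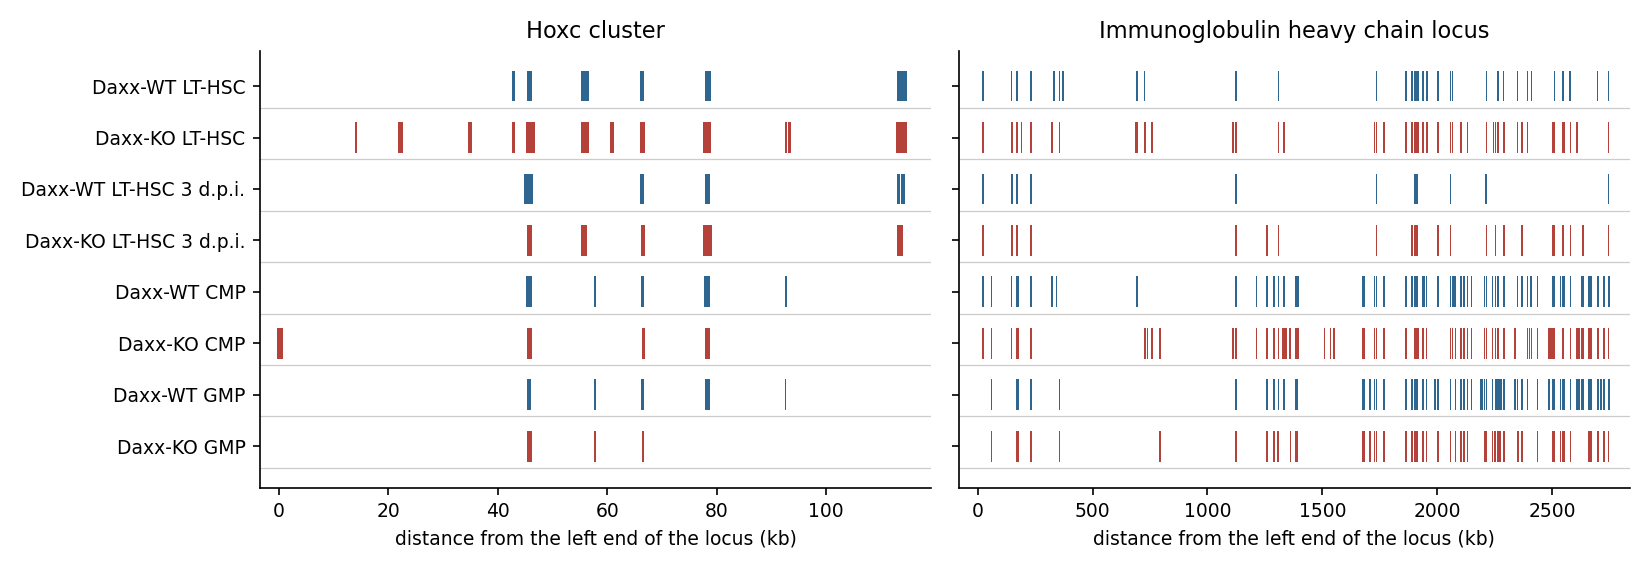
Peaks of 8 lists, as bars along the Hoxc cluster (left) and the immunoglobulin heavy chain locus (right), by distance in kb from the left end of the locus, Daxx-WT in blue and Daxx-KO in red; bars too narrow to see were widened to a fixed minimum. The Hoxc span holds 12 peaks in Daxx-KO and 6 in Daxx-WT LT-HSCs, and over the heavy chain locus CMPs and GMPs of both genotypes have more peaks than LT-HSCs.

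Each peak was assigned to the nearest protein-coding start site. Of 17155 protein-coding genes with a peak, 35.3% had at least 1 Daxx-KO only peak and 20.1% at least 1 Daxx-WT only peak, 1852 genes had both kinds, and the median gene had none of either. After Zfp386 and Dad1, the genes with the most Daxx-KO only peaks were Zfp608 (10 of 47 peaks, no Daxx-WT only peak), the cAMP phosphodiesterase Pde4d (10 of 70) and the junction protein Magi1 (10 of 24). Smad7, the inhibitor of TGF-beta signalling, had 9 of 42. Adgrl4, an endothelial adhesion receptor, and Auts2 had 9 of 24 each. Clint1 had 8 of 20 and Casz1, a zinc finger factor of heart and nerve development, 8 of 20, with 0 and 1 Daxx-WT only peaks. Among Daxx-WT only peaks, Mllt3 had 8 Daxx-WT only peaks of 21 and 6 Daxx-KO only peaks of 19. Mecom had 8 Daxx-WT only peaks of 43 and 7 Daxx-KO only peaks of 41. At both genes the number of peaks was thus almost the same in the 2 genotypes. Most of these peaks were shared, and a minority was found in 1 genotype alone. Of the 8 Mecom peaks, 7 lay in introns and 7 were found in no other list. Runx2, a RUNX factor of bone, had 7 Daxx-WT only and 8 Daxx-KO only peaks. Tgfbr2, the TGF-beta receptor, had 6 Daxx-WT only of 30 peaks and 2 Daxx-KO only of 26. Mef2c, a factor of lymphoid and myeloid choice, had 6 Daxx-WT only and 4 Daxx-KO only peaks. Rbfox1 had 7, Diaph3 and Rora 6 each, and Adgrl2 had 5.

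Genes were also grouped in 14 lists, whose shares were not matched to the background for place or width. The 22 stem cell transcription factors had 66 Daxx-KO only of 327 peaks (20.2%, background 13.9%) and 32 Daxx-WT only of 294 peaks (10.9%, background 6.78%), so only-peaks of both kinds were more frequent near them than in the lists at large. At least 1 Daxx-KO only peak was nearest to 21 of the 22 genes (95.5%, against 35.3% of all genes with a peak) and at least 1 Daxx-WT only peak to 14 (63.6%, against 20.1%). These genes hold many peaks, 327 Daxx-KO peaks over 22 genes against a median of 3 per gene. After Mecom, those with the most were Etv6 with 7 Daxx-KO only and 2 Daxx-WT only peaks, Hlf with 5 and 3, and Msi2 with 6 and 2. The 18 stem cell surface and sorting genes had 15.7% and 6.14%, close to the background. Kit, the receptor used for the sort, and Cd34 had 4 Daxx-KO only peaks and 1 Daxx-WT only peak each, the common leukocyte antigen gene Ptprc 2 and 3, and the chemokine receptor gene Cxcr4 2 and 1.

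Lymphoid lineage genes had 45 Daxx-KO only of 222 peaks (20.3%) but 14 Daxx-WT only of 195 peaks (7.18%). Among them Id2, an inhibitor of E proteins, had 6 Daxx-KO only and 3 Daxx-WT only peaks, the T cell factor gene Gata3 5 and 3, Bcl11a 5 and 1, and the chromatin organiser gene Satb1 5 and 1. Ikzf1, which encodes the lymphoid factor Ikaros, had 5 of 13 Daxx-KO peaks without a partner and 0 of 8 Daxx-WT peaks. A promoter peak was present in Daxx-KO LT-HSCs and absent in Daxx-WT LT-HSCs at Il7r (interleukin-7 receptor), Igll1 (surrogate light chain) and Ikzf3 (Aiolos). The peak at Igll1 was also found in Daxx-WT CMPs and GMPs, and that at Ikzf3 in Daxx-WT GMPs. Myeloid fate and granule genes were at the background, with 20 of 147 (13.6%) and 12 of 139 (8.63%). Klf4 had 4 Daxx-KO only peaks and 1 Daxx-WT only peak, Irf8 1 and 2, Fcgr3 3 and 0, and Cebpd 2 and 0. Cebpb, a factor of emergency granulopoiesis, had a promoter peak of 914 bp that was Daxx-WT only in LT-HSCs. A peak at this place was present in all 9 other lists, those without Daxx included. Erythroid and megakaryocyte genes had 6 of 70 (8.57%) and 4 of 70 (5.71%), with 1 and 2 at Zfpm1, 2 and 1 at Ank1, and 1 and 0 at Gfi1b.

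Interferon-stimulated genes were below the background for Daxx-KO only peaks, with 10 of 113 (8.85%), and near it for Daxx-WT only peaks, with 8 of 111 (7.21%). Rtp4 and Samhd1 had 2 Daxx-KO only peaks and 1 Daxx-WT only peak each, Oas2 0 and 2, and Oasl2 1 and 1. Nucleic acid sensors had 3 of 50 (6.0%) and 2 of 49 (4.08%). Over all peaks within 50 kb of their start sites the shares were 9.09% and 2.63%. In this list Tlr8, Tbk1 and Aim2 had 1 Daxx-KO only peak each, and Ddx58 and Tlr9 had 1 Daxx-WT only peak each, that of Tlr9 at its start site. Inflammatory mediators had 23 of 155 (14.8%) and 11 of 144 (7.64%). Tnfaip3, an inhibitor of NF-kappaB signalling, had 5 Daxx-KO only peaks and 1 Daxx-WT only peak, Nfkb1 3 and 3, Il12b 3 and 2, and Il12a 2 and 2. Nlrp3, the inflammasome sensor, had a promoter peak in Daxx-KO LT-HSCs alone, but LT-HSCs at 3 d.p.i. had it in both genotypes. AP-1 factors had 6 of 88 of each kind (6.82% and 6.82%): Fosl2 had 4 Daxx-KO only peaks and 1 Daxx-WT only peak, Jun 0 and 2, Mafk 1 and 1, and Fos 0 and 1.

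Cell cycle regulators had 15 of 159 (9.43%) and 12 of 157 (7.64%), with 3 and 4 at Myc, 2 and 2 at the quiescence gene Cdkn1c, 1 and 1 at Ccnd2, and 2 and 0 at Ccnd3. Genes for H3.3 chaperones and PML bodies had the largest Daxx-KO only share of the 14 lists, 14 of 47 peaks (29.8%), with 2 Daxx-WT only of 34 peaks (5.88%). This share rested on the assignment: over all peaks within 50 kb of the start sites of these genes, 17 of 128 (13.3%) were Daxx-KO only, close to the background. Members of the Hira complex made up part of it: Hira had 2 Daxx-KO only of 3 peaks, Cabin1 2 of 7, Ubn2 2 of 3 and Ubn1 1 of 2. Atrx, the partner of Daxx, had 1 of 3, and H3f3a, one of the genes of H3.3, had 2 of 8 and 1 Daxx-WT only peak. The Hira peaks lay 81242 and 125673 bp from its start site, the Cabin1 and Ubn2 peaks in introns, and the Ubn1 peak, 200 bp wide, within 1000 bp of a start site. Silencing genes had 13 of 118 (11%) and 6 of 108 (5.56%), with 2 and 1 at Tet1, 1 and 2 at Tet2, 3 and 0 at Tet3, and 1 and 0 at Ehmt1. Imprinted genes had 15 of 86 (17.4%) and 8 of 81 (9.88%), with 1 and 3 at Zrsr1, 3 and 0 at Grb10, 2 and 0 at Snrpn, and 2 and 0 at Igf2r. Loci discussed for stem cells in the study had 3 of 66 (4.55%) and 5 of 66 (7.58%). Among them Mki67 had 1 and 1, Mx1 and Ifit1 1 and 0, and Ifit3 0 and 1. Spi1, the gene of Pu.1, had 1 Daxx-WT only peak of 318 bp in an intron, 2118 bp from its start site. The study discusses these loci in part for LT-HSCs at 3 d.p.i., which are other samples of the series.

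**Figure D3:**
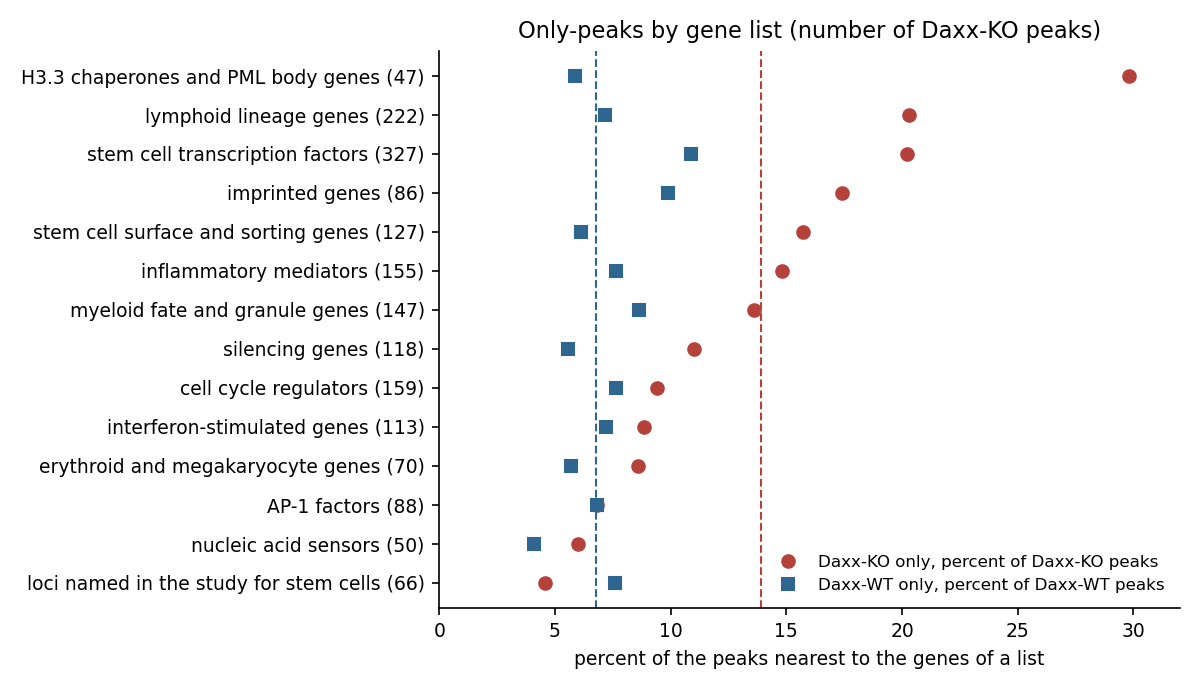
Percent of the peaks nearest to the genes of each list that were Daxx-KO only (circles, of the Daxx-KO peaks, whose number stands in parentheses) or Daxx-WT only (squares, of the Daxx-WT peaks); dashed lines mark the whole lists at 13.9% and 6.78%. H3.3 chaperones (29.8%), lymphoid genes (20.3%) and stem cell factors (20.2%) lie farthest to the right of the Daxx-KO line, the first of them only under the nearest-gene assignment.

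At the level of genes, 14419 protein-coding genes had a promoter peak in both lists, 374 had one in the Daxx-KO list alone and 129 in the Daxx-WT list alone. Of the 374, 3 d.p.i. LT-HSCs had a promoter peak without Daxx alone in 64, with Daxx alone in 16 and in both genotypes in 34. Of the 129, the numbers were 11, 4 and 11. Of single peaks, 206 of 1569 Daxx-KO only peaks at start sites were present without Daxx and absent with Daxx at 3 d.p.i., and 55 the reverse. Of 553 Daxx-WT only peaks at start sites, 20 were present with Daxx and absent without it, and 49 the reverse, so most Daxx-WT only promoter peaks that were found in 1 genotype at 3 d.p.i. were found in the opposite one. The 3 d.p.i. list without Daxx was the longer, with 44326 peaks against 36949, and 75.6% of the shared peaks that were in 1 of the 2 lists were in it. The widest of the 206 lay at Casz1 (2370 bp), at the cadherin gene Dchs1 (2340 bp), at Slc18a3, the transporter of acetylcholine (2122 bp), at the chromatin remodeller gene Smarca2 (2105 bp) and at Tmem35a (2054 bp), with Ptbp1, Mmel1, Gm10837, Mprip and Fam162b as the nearest genes of the next 5. Among the 20, a peak of 1608 bp had 9030624G23Rik as its nearest gene, at a distance of 153967 bp, and those at Hoxd9 (1508 bp) and at the microtubule regulator Clasp2 (964 bp) covered coding start sites. The other 7 of the 10 widest had Uggt1, Akt1, Fam110b, Nup153, Nkpd1, Adgrf1 and Cnih2 as their nearest genes, and those of Adgrf1 and Cnih2 also covered a coding start site.

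Several of the widest Daxx-KO only peaks had genes of development as their nearest genes. The widest, 2802 bp, covered the start site of Tmem132c, and the next, 2598 bp, that of Twist1, a helix-loop-helix factor of mesoderm, with GC contents of 60.2% and 64.3%. A further one of 2274 bp lay 8776 bp from Twist1. A peak of 2504 bp lay in an intron of Rnf157. Sdk2 (2460 bp), Casz1, Dchs1, the homeobox gene Gbx1 (2301 bp) and Olig3, a helix-loop-helix factor of the nervous system (2296 bp), were also the nearest genes of peaks among the 10 widest. The Tmem132c and Twist1 peaks were found in LT-HSCs at 3 d.p.i. of both genotypes, those of Rnf157, Casz1 and Dchs1 without Daxx alone, that of Sdk2 with Daxx alone, and those of Gbx1 and Olig3 in neither. The widest Daxx-WT only peaks were 2214 bp (nearest gene Slc22a12, 142922 bp away), 2083 bp (Pygl), 2057 bp at the start site of the stress hormone receptor gene Crhr1, 2002 bp (Appbp2) and 1954 bp in an intron of Cd244a, a receptor of the SLAM family. The next 5 had Fbxl16, Btbd8, Cmah, Lrguk and Nek10 as their nearest genes. Of these 10, 1 had a peak at 3 d.p.i., at Fbxl16 and without Daxx.

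Only-peaks of both kinds were mostly absent from the other lists. Of Daxx-KO only peaks 51.7%, and of Daxx-WT only peaks 55.5%, were in none of the 9 other lists, against 11.1% of shared peaks. In Daxx-WT CMPs, 31.7% of Daxx-KO only peaks were open and 30.1% of Daxx-WT only peaks, and in Daxx-WT GMPs 27.4% and 25.5%. Of Daxx-KO only peaks, 2120 (21.6%) were open in both Daxx-WT CMPs and GMPs, and of Daxx-WT only peaks 891 (20.1%). The 3 d.p.i. list without Daxx held 13% of Daxx-KO only peaks against 10.2% of Daxx-WT only peaks, and the list with Daxx held 5.06% against 4.62%. Both kinds of only-peaks were therefore found more often in the list without Daxx, which was the longer of the pair. When both 3 d.p.i. lists were reduced to the same number of peaks by score, 404 Daxx-KO only peaks were present without Daxx alone and 275 with Daxx alone. For Daxx-WT only peaks the numbers were 136 and 124, and for shared peaks 4707 and 4785. The same reduction in KLS cells (Lin- with c-Kit and Sca-1) at 3 weeks post induction gave 436 against 231 for Daxx-KO only, 169 against 97 for Daxx-WT only and 4777 against 5181 for shared peaks. These samples differ also in how Daxx was deleted. Per the study's methods, double knockouts were Mx1Cre mice given the inducer pI:pC, as were mice for RNA-seq of KLS cells. The Cre line of KLS cells is not named in the methods of ATAC-seq. The 3 d.p.i. mice had tamoxifen by injection on another schedule, those of the LT-HSCs without a time label by gavage. Among peaks of 400 bp to below 800 bp alone, the 3 d.p.i. list without Daxx held 11.5% of Daxx-KO only, 10.5% of Daxx-WT only and 46.5% of shared peaks.

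**Figure D4:**
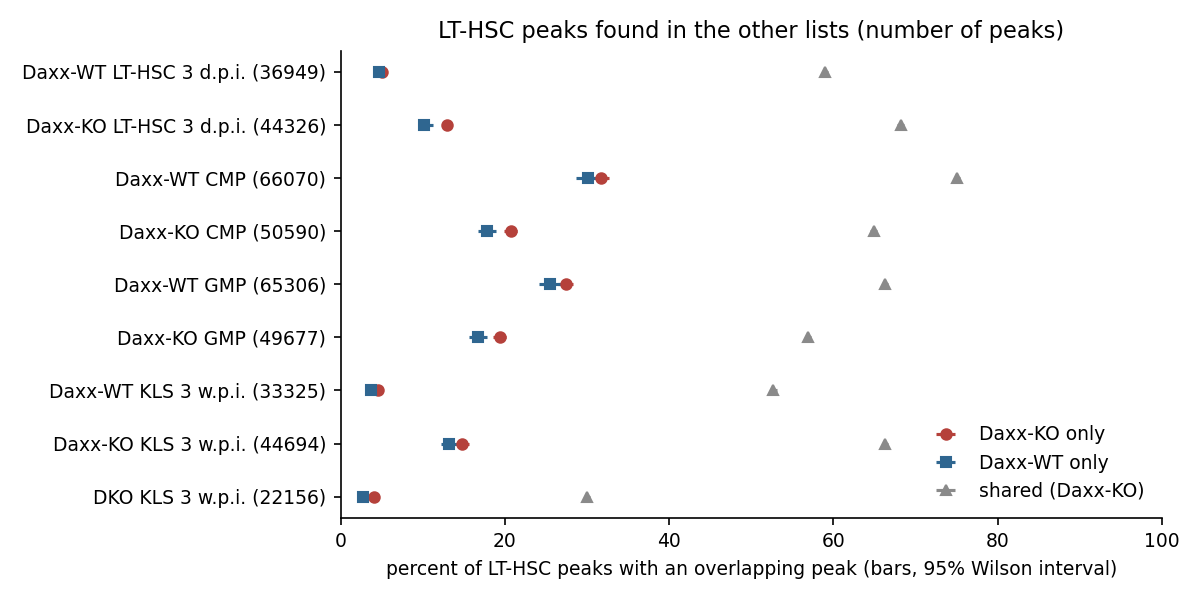
Percent of Daxx-KO only peaks, Daxx-WT only peaks and shared peaks of LT-HSCs that overlap a peak of each of the 9 other lists, with the number of peaks of each list in parentheses and bars for the 95% Wilson interval. Both kinds of only-peaks lie between 2.73% and 31.7%, close to each other in each list, and shared peaks lie higher in each of the 9 lists.

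The LT-HSC libraries at 3 d.p.i., 3 Daxx-KO and 2 Daxx-WT, are separate samples with a value per library, from cells sorted also as Il-7Ra- and Flk2-. The labels give Daxx +/+ for both controls, while a legend of the study names Daxx +/F beside Daxx +/+. The authors deposited scaled read counts at 11927 sites that they had selected as different between the genotypes, so a site listed there had to differ. Over all of them, 29.1% were higher without Daxx. Sites at Daxx-KO only peaks of LT-HSCs numbered 502, of which 317 (63.1%) were higher without Daxx. Of 199 sites at Daxx-WT only peaks 94 (47.2%) were higher, and of 3320 sites at shared peaks 1834 (55.2%) were. A site lay at 496 of 9816 Daxx-KO only peaks and at 198 of 4438 Daxx-WT only peaks. For most only-peaks the table thus has no value.

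At the intronic Slamf1 peak shown above, the 3 Daxx-KO libraries had 22.94, 19.09 and 31.67 scaled reads and the Daxx-WT libraries 10.14 and 4.69. All Daxx-KO values were above both Daxx-WT values. At the Daxx-KO only peak in an exon 9839 bp from the start site of Itga2b, the gene of the platelet integrin CD41, and outside that gene, the values were 96.35, 97.36 and 108.73 without Daxx against 54.09 and 36.57 with it. At that 13607 bp from Mx1, an antiviral effector gene, they were 58.73, 63.95 and 53.84 against 29.3 and 30.01. The 2 groups of libraries did not overlap at either site, but the sites had been selected as different. Of 504 overlaps of listed sites with Daxx-KO only peaks, all Daxx-KO values were above all Daxx-WT values in 319 and below them in 185. Separation at a named site is thus no support of its own. A peak over the start site of Lmo2, a partner of the stem cell factor Tal1, had 37.62, 36.27 and 35.89 against 20.28 and 15.94. The peak near H3f3a had 49.55, 47.72 and 43.28 against 22.54 and 19.69. Other Daxx-KO only peaks had sites that went the other way. In an intron of Kit the values were 98.19, 75.4 and 88.67 without Daxx against 146.49 and 135.98 with it. In an intron of Cabin1 they were 35.79, 42 and 45.39 against 116.06 and 71.27. Msi2, an RNA-binding regulator of stem cells, had one of each, with a log2 ratio of group means (plus 1) of 0.67 in an intron 1607 bp from the start site and -0.97 at 67046 bp.

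At Daxx-WT only peaks, the site in the Mecom intron shown above had 16.52, 14.32 and 13.72 scaled reads without Daxx against 29.3 and 33.76 with it. The site in an intron of Erg, an ETS factor of stem cells, had 22.94, 17.18 and 24.28 against 48.45 and 40.33. That near Etv6 had 13.76, 19.09 and 19 against 33.8 and 41.26. At these 3 stem cell factors, and at the sites of Fli1, Cdkn1c and Mafk, all Daxx-KO values were below both Daxx-WT values. Of 199 overlaps of listed sites with Daxx-WT only peaks, the libraries were separated in this direction in 102 and in the other in 94. Of the 8 sites of listed genes at Daxx-WT only peaks, 7 were lower without Daxx. At all Daxx-WT only peaks 105 of 199 sites were lower, and among all selected sites 8451 of 11927 were. The site that was higher lay at Oas2, an antiviral synthetase gene. Its values were 84.42, 69.68 and 74.95 without Daxx against 45.07 and 37.51 with it. Of the 16 sites of listed genes at Daxx-KO only peaks, 9 were higher and 7 lower without Daxx.

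**Figure D5:**
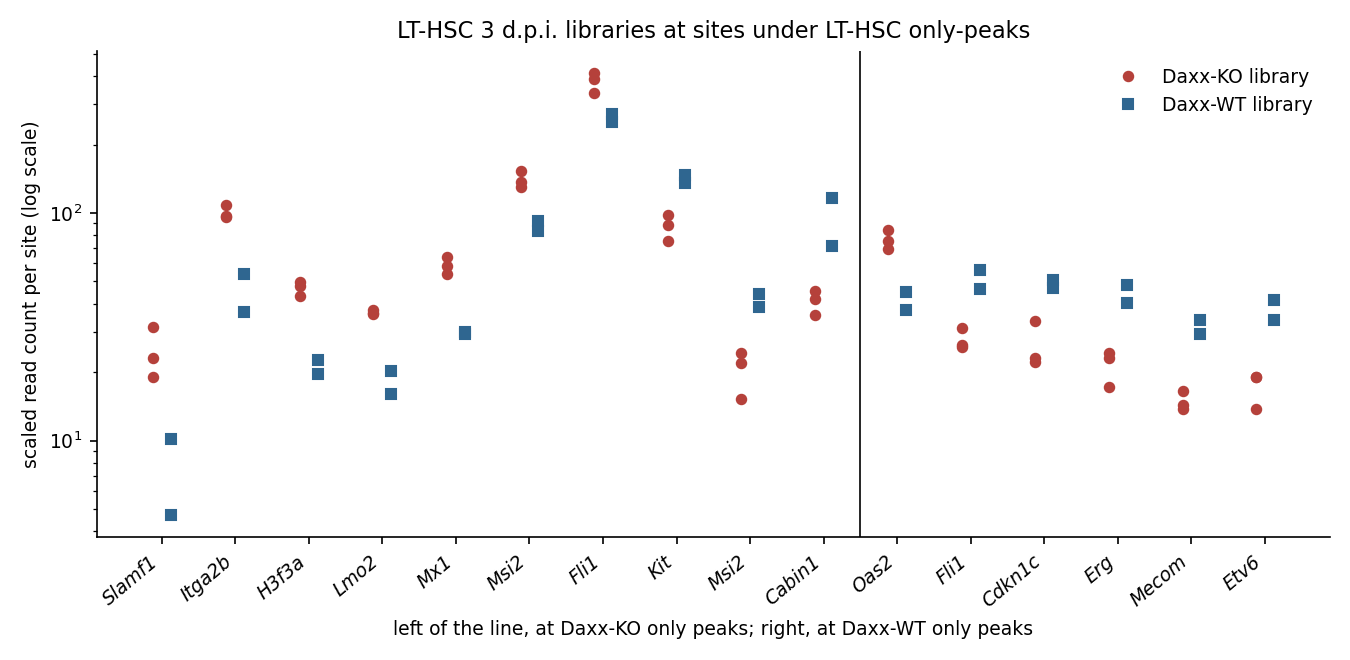
Scaled read counts per library (log scale) in LT-HSCs at 3 d.p.i. at sites that overlap Daxx-KO only peaks (left of the line) or Daxx-WT only peaks (right) of the LT-HSCs without a time label, circles for 3 Daxx-KO and squares for 2 Daxx-WT libraries. The circles lie above the squares at Slamf1, Itga2b, H3f3a, Lmo2 and Mx1 and below them at Kit and Cabin1, and on the right they lie below at Erg, Mecom and Etv6.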

How the data were processed

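The authors deposited 1 peak list per group, made from 2 libraries each for the LT-HSCs studied here. Per the labels, reads were processed with CASAVA 1.8.4, cutadapt 1.13, STAR 2.5.3 and bedtools on mm10. The peak caller, its threshold and how libraries were combined are not given in the sources used here. The deposited LT-HSC lists give positions alone, and the 3 d.p.i. and KLS lists also a score, which the authors computed per peak and which was used to rank peaks. In these scored lists repeated intervals were counted once. The table of 3 d.p.i. sites holds scaled read counts per library, per the file headers, and its comparison columns (fold changes and p-values) were not used. The site tables of KLS cells were not used.

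Peaks on chromosomes 1 to 19, X and Y counted as shared if they overlapped by 1 bp or more. Start sites, exons and genes were taken from GENCODE M 21. A peak belonged to the start site of a protein-coding transcript nearest to its centre, and the distance was measured from its edge. A peak within 1000 bp of a start site of any transcript was a promoter peak, and others were placed by their centre in an exon, an intron or between genes. Sequences, GC content and soft-masked bases came from RefSeq's GRCm38, and 0 peaks ran past a chromosome end. The tools were samtools 1.23.1, pysam 0.24.0, SciPy 1.17.1, matplotlib 3.10.9, pandas 2.3.3, numpy 2.4.6 and Python 3.11.15, and the overlap code was tested on simulated intervals. With 1 list per genotype no p-value was computed. Wilson intervals are 95% intervals of counting error. Gene lists, markers and compared classes were chosen with earlier results of these data known.

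Genes were named by rule: Daxx, up to 4 genes of each list with the most only-peaks, the 10 genes nearest to the most only-peaks of each kind, the genes of the 5 longest clusters, the 10 widest peaks of each kind, and promoter peaks with the same presence at 3 d.p.i. Hox genes, antigen receptor loci, width ratios and the genes at 3 d.p.i. sites were chosen after their values were seen. A few genes that this rule would name are not reported here.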

Additional observations from a re-analysis of the deposited data

How the results depend on the processing

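No paired analysis was possible because each genotype has 1 peak list for its 2 libraries, and for the same reason no library could be left out. The log2 ratio of Daxx-KO only to Daxx-WT only peaks was 1.15. With the narrowest peaks of the longer list left out until both had the same number, it was 0.0879 with 7082 Daxx-WT only peaks. Lists of equal length set this ratio near 0 by construction, so it says nothing about the excess. It was 0.84 when an overlap of at least 50% of both peaks was asked for, and 1.21 with only-peaks of at least 300 bp. With a window of 2500 bp, 25.9% of Daxx-KO only, 22.4% of Daxx-WT only and 41.2% of shared peaks were at a start site. With start sites of protein-coding transcripts alone, the shares were 8.48%, 6.4% and 25.6%. Under the 50% overlap they were 17.8% of Daxx-KO only against 18.4% of Daxx-WT only peaks, so the order of the 2 kinds turned. Among peaks of 400 bp to below 800 bp, an alternative chosen after seeing the data, the shares were 13.9% of Daxx-KO only and 14.9% of shared peaks. With a gap of 20 kb, clusters of at least 2 held 2794 Daxx-KO only and 540 Daxx-WT only peaks. With a gap of 100 kb they held 1825 Daxx-WT only peaks, and with the scaled gap, also chosen after seeing the data, 3020 Daxx-KO only peaks. With all peaks within 50 kb of a start site, the Daxx-KO only share moved from 29.8% to 13.3% for H3.3 chaperones and from 6.0% to 9.09% for nucleic acid sensors, and the Daxx-WT only share of the latter from 4.08% to 2.63%. The shares of the other lists moved by less than 1.5 times. The cause of these changes was not tested beyond the settings themselves.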
